A study of Homo sapiens with 9 samples.

Results

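The comparison described here sets 1 array of KYSE30 cells transfected with a microRNA combination against 1 array of cells transfected with a negative control, 2 of the 9 arrays of the series. KYSE30 is a human cell line established from a squamous cell carcinoma of the esophagus. All groups received Lipofectamine as the transfection reagent and were collected on day 3, and the 4 single microRNAs of the series, miR-32, miR-455, miR-181a and miR-181b, have 1 array each and serve as context. Which microRNAs the combination held and in what amounts, the arm of each microRNA, and the nature of the negative control are not stated in the sources used here. Probes were compared where their detection p-value, which measures a probe against the array's negative control probes, was under 0.01 on at least 1 of the 2 arrays. This kept 16555 of 47317 probes (35.0%). Every value comes from 1 array and has no replicate error, no test was possible, and differences between separate cultures cannot be told apart from those between treatments.

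A microRNA is a short RNA that guides an Argonaute protein to messenger RNAs. Pairing rests mainly on the seed, the stretch near the 5′ end of the microRNA, and usually lowers the stability or translation of the messenger. Direct targets are therefore lowered as a rule, while genes downstream of them may move either way.

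The mature sequences of the microRNAs named in the series are shown because they carry the seeds by which these microRNAs select targets. They are the annotated sequences, not a record of the RNAs transfected, and are taken from RefSeq (GRCh38.p14), with the seed, bases 2 to 8, in capitals. Both arms of miR-455 are given, since the labels name no arm, and for the others the 5p arm is shown.
hsa-miR-32-5p: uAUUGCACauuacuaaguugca
hsa-miR-455-5p: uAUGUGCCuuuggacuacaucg
hsa-miR-455-3p: gCAGUCCAugggcauauacac
hsa-miR-181a-5p: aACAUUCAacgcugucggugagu
hsa-miR-181b-5p: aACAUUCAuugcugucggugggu
These 5 sequences carry 4 different seeds, and the pair of miR-181 sequences shares its seed. From miR-181a-5p to miR-181b-5p, counted from the 5′ end, the differences are A9U, C10U and A21G, all outside the seed. The miR-32 sequence lies at chr9:109046272-109046293 on the minus strand, within the gene TMEM245. The miR-455 arms lie on the plus strand at chr9:114209449-114209470 and chr9:114209487-114209507, within COL27A1, a fibrillar collagen gene. Sequence of miR-181a-5p is encoded at chr1:198859108-198859130 (minus strand) and chr9:124692480-124692502 (plus strand), and that of miR-181b-5p at chr1:198858925-198858947 (minus strand) and chr9:124693725-124693747 (plus strand). The loci on chromosome 1 lie within the long noncoding RNA gene MIR181A1HG, and those on chromosome 9 within NR6A1, which encodes a nuclear receptor, and MIR181A2HG. Genes were matched by position without regard to strand, and whether a locus is exonic or intronic was not analysed here.

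The files name probes by number without genes, and 0 of these numbers occur in the reference gene table used here. Results therefore concern single probes and probe sets, the cell line's label was not checked against marker genes, and seed sites could not be looked up for any probe. Signal on the combination array was lower than on the control and the 4 single microRNA arrays. Its mean raw signal was 270 against 406 on the control array and 361 to 468 on the single microRNA arrays. Its median raw signal was 70.0 against 96.0 to 103 on the other 5. Detection was alike, with 15353 probes on the combination array, 15099 on the control and 14304 to 15775 on the single arrays. Before normalization 88.8% of the compared probes were lower on the combination array, with a median raw ratio to the control of 0.688. Quantile normalization, which gives all arrays the same distribution, brought the median difference of the compared probes to 0.01 on the log2 scale, so each difference below is relative to the bulk of probes.

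In the combination, 715 of the 16555 probes stood at least 2-fold above the control and 933 stood at least 2-fold below it. These are 4.32% and 5.64% of the compared probes, and 9.95% together. Most probes differed little: 70.1% lay within 1.5-fold, and the middle 50% of differences ran from -0.36 to 0.37 on the log2 scale.
The 5th and 95th percentiles of the difference were -1.04 and 0.95. The median size of a called difference was 2.37-fold in both directions, so the typical called probe lay not far past the line. Between 0.9 and 1.0 on the log2 scale, just short of 2-fold, stood 234 higher and 297 lower probes, and 182 and 229 stood between 1.0 and 1.1. The excess of lower over higher probes depended on the scaling. It became 475 higher and 1306 lower when arrays were scaled to the median of all probes, which lowered the share of higher probes from 43.4% to 26.7%, and it turned to 808 higher and 773 lower when they were scaled to the median of the 12202 probes detected on all 9 arrays. In unnormalized signal, the median ratio to the control was 1.35 for the 715 higher probes and 0.335 for the 933 lower ones.

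**Figure D1:**
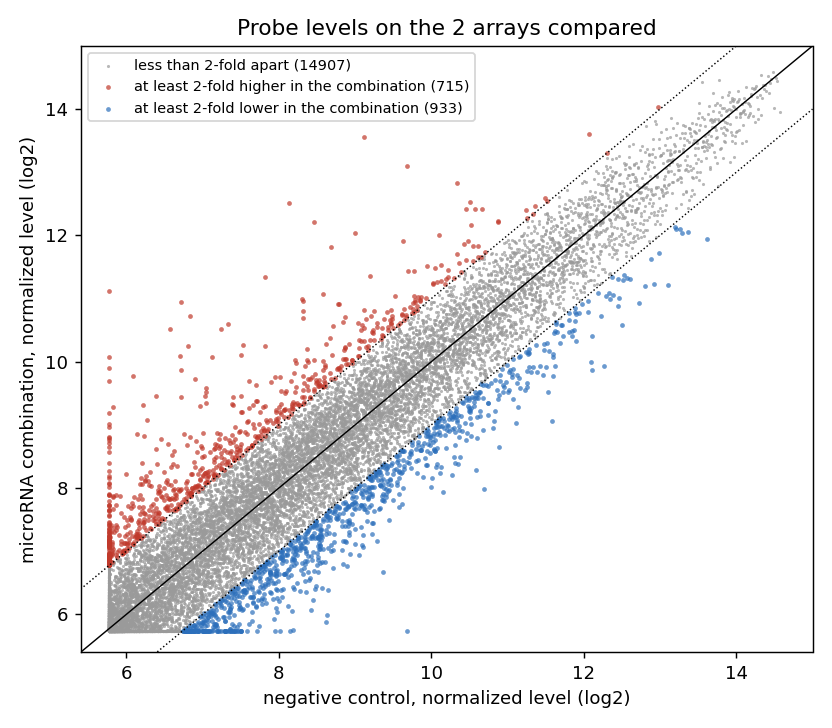
Normalized level (log2) of each of the 16555 compared probes on the control array (x axis) and the combination array (y axis); the solid line marks equal levels and the dotted lines 2-fold. The 715 higher probes (red) reach farther from the line of equality than the 933 lower probes (blue), and the straight edges at the bottom and left are probes held at the lowest detected level of an array.

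The balance of directions turned with the size of the difference: lower probes were more numerous at 2-fold and higher probes at 4-fold and above. At least 4-fold, 79 probes were higher (0.477% of those compared) and 33 lower (0.199%). At least 8-fold, 28 were higher (0.169%) and 1 was lower (0.00604%). At 1.5-fold the counts were 2354 higher (14.2%) and 2593 lower (15.7%). The 4-fold excess of higher probes was found under every alternative normalization and detection rule run, with the smallest margin, 66 higher against 53 lower, under scaling to the median of all probes. Ranked among probes detected on both arrays, the 10th highest difference was 3.45 and the 10th lowest was -2.26, while at rank 100 the values were 1.71 and -1.68. The tails thus parted in their outermost probes and were alike in size at rank 100.

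**Figure D2:**
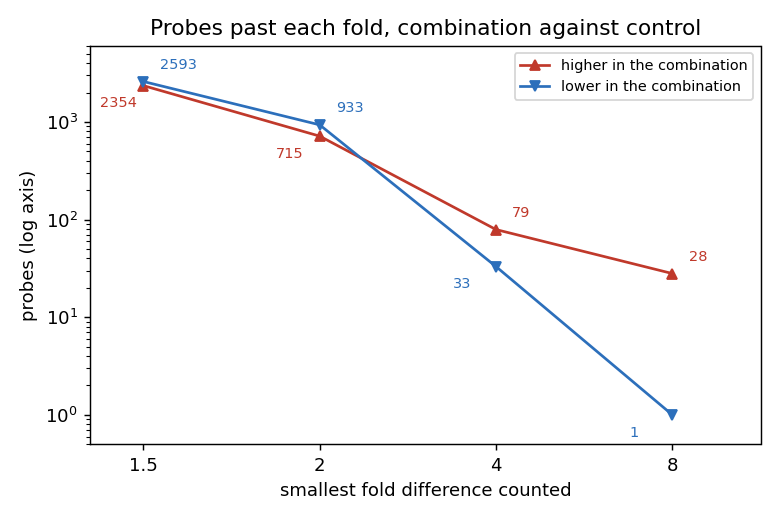
Number of probes (log axis) at least 1.5, 2, 4 and 8-fold higher (red) or lower (blue) in the combination than in the control, 1 array each. The lines cross between 2-fold (715 and 933) and 4-fold (79 and 33), and at 8-fold 28 probes were higher and 1 lower.

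Detection set a limit on part of these differences. Both arrays detected 13897 of the compared probes, of which 610 were 2-fold higher (4.39%) and 851 lower (6.12%). A further 1456 were detected on the combination array only, 105 of them at least 2-fold higher, and 1202 on the control array only, 82 of them at least 2-fold lower. Where an array did not detect a probe, its value was raised to the lowest detected level of that array if it was below, so on the normalized scale the dim side is an upper limit and these differences are lower bounds. They hold for that scale alone, because background correction enlarges the fold of a dim probe and normalization changes the ratio between arrays. The largest such bound was a probe detected on the combination array, with a raw signal of 1657, that was not detected on the control, at 121. It was at least 40.7-fold higher in the combination on the normalized, background-corrected scale. Its raw signals, neither background corrected nor scaled between arrays, stood at a ratio of 13.7. On the single arrays its raw signal was 832 in miR-455, 394 in miR-32, 369 in miR-181a and 2384 in miR-181b, all detected, so the control was the low array of the 6 for this probe. The only probe at least 8-fold lower was also a bound. Its raw signal was 957 in the control and 66.7 in the combination, where it was not detected. It was at least 15.4-fold lower on the normalized scale, against a ratio of 14.3 in raw signal. On the single arrays its raw signal was 427 in miR-455, 804 in miR-32, 380 in miR-181a and 163 in miR-181b. The combination was thus the lowest of the 6 arrays for this probe. Both raw ratios also carry the difference in brightness between the 2 arrays, whose median raw ratio, combination to control, was 0.688 over the compared probes. With quantile normalization but without background correction, 0 probes were 8-fold lower. At the edge of the detection rule, 236 probes had 0.00909 as the lower of their detection values on both arrays, just inside, and 237 had 0.0104, just outside. Their median raw signals were alike: 117 and 118 on the control array and 85.8 and 85.1 on the combination array. This likeness follows in part from the rule, since a detection p-value is set by the probe's signal on that array.

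Differences of 2-fold were spread over the range of signal. With the compared probes split into 10 equal parts by their mean normalized level on both arrays, the lowest 2 parts held 0 calls, since mean levels up to 6.19 leave no room for a 2-fold difference above the lowest detected level. In the third part, at mean levels of 6.19 to 6.66, 7.49% of probes were 2-fold higher and 8.82% lower. The share of higher probes fell off toward bright probes, to 4.65% in the ninth part and 1.93% in the brightest, at mean levels of 10.89 to 14.53. That of lower probes was 7.55% in the eighth part, 5.8% in the ninth and 3.38% in the brightest. Lower probes outnumbered higher ones in each part from the third up except the fourth, where they numbered 130 against 132. The median difference of each part lay between -0.02 and 0.04.

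The 2 highest and the 2 lowest probes detected on both arrays are named. ILMN_1662358 had raw signals of 672.4 in the control, 6478 in miR-455, 8591 in miR-32, 481.4 in miR-181a, 13108 in miR-181b and 8531 in the combination. It was low on the control and miR-181a arrays and high on the other 4. After normalization it stood at 9.12 in the control and 13.56 in the combination on the log2 scale, a difference of 4.44 (21.7-fold), the largest among probes detected on both arrays. ILMN_1674063 had raw signals of 369.3 in the control, 3072 in miR-455, 3034 in miR-32, 229.5 in miR-181a, 5080 in miR-181b and 4219 in the combination. The same 2 arrays were low, and its difference was 4.38 (20.8-fold). For both probes the combination lay close to miR-181b, with differences of -0.19 and 0.12 (combination minus miR-181b) in normalized level.

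Both lowest probes followed different patterns across the arrays. ILMN_3241554 had raw signals of 493.1 in the control, 204.8 in miR-455, 231.1 in miR-32, 154.7 in miR-181a, 150.1 in miR-181b and 90.1 in the combination. The control was high and all 5 microRNA arrays were low. Its normalized level was 8.62 in the control and 5.88 in the combination, a difference of -2.74 (6.69-fold), with -1.92 in miR-455, -1.57 in miR-32, -2.32 in miR-181a and -2.24 in miR-181b. Its level in the combination was close to the lowest detected there (5.74), and without background correction the difference was -1.78. ILMN_3265742 had raw signals of 1877 in the control, 2006 in miR-455, 1998 in miR-32, 2517 in miR-181a, 587.1 in miR-181b and 231.1 in the combination. Here miR-181b and the combination were low and the other 4 arrays were high. Its normalized level was 10.70 in the control, 9.10 in miR-181b and 7.99 in the combination, a difference of -2.71 (6.54-fold) for the combination and of -1.60 for miR-181b.

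**Figure D3:**
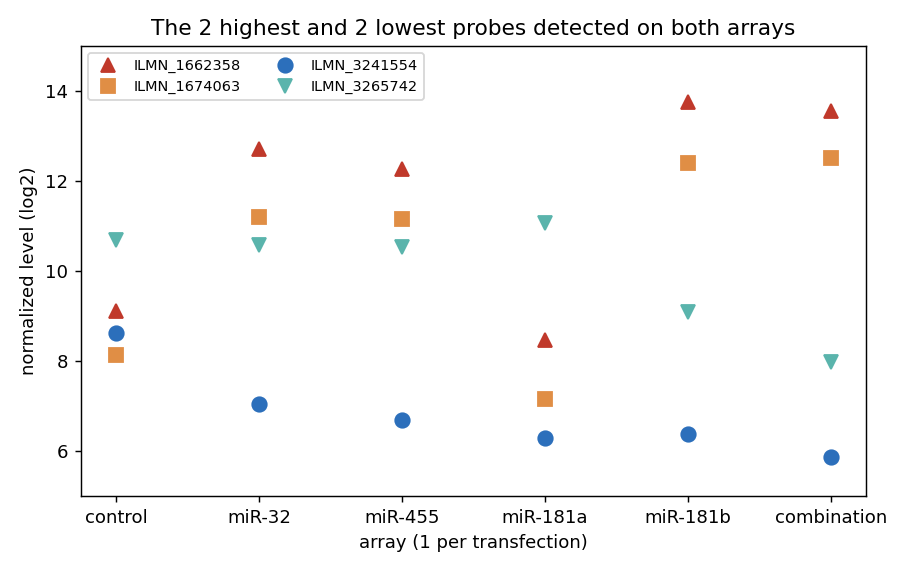
Normalized level (log2) of the 4 named probes on the control array, the 4 single microRNA arrays and the combination array, 1 point per array. ILMN_1662358 and ILMN_1674063 are low in the control and miR-181a and high in the other 4 arrays, ILMN_3241554 is high in the control, and ILMN_3265742 is low in miR-181b and the combination.

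Probes grouped by the size of their difference in the combination had unlike levels on the single arrays. All differences from the control share the 1 control array, so a high or low control value enters each of them, and the groups were chosen on the combination's difference. In the 28 probes at least 8-fold higher in the combination, 9 of them not detected in the control, the median difference was 3.43 in the combination, 3.48 in miR-181b, 2.07 in miR-455, 2.29 in miR-32 and 0.03 in miR-181a. Over these 28 probes the difference ranged from 3.02 to 5.35 in the combination, from -0.99 to 2.25 in miR-181a and from 0.94 to 5.5 in miR-181b. In the 51 probes 4-fold to 8-fold higher, the medians were 2.37 in the combination, 2.10 in miR-181b, 1.19 in miR-455, 0.95 in miR-32 and 0.05 in miR-181a. In the 636 probes 2-fold to 4-fold higher, the medians of the single arrays were smaller, at 0.68 in miR-181b, 0.17 in miR-455, 0.15 in miR-32 and 0.05 in miR-181a, against 1.19 in the combination. The strongest group was thus high in miR-32, miR-455 and miR-181b as well, whereas the moderate group was near the control in miR-32, miR-455 and miR-181a and between the control and the combination in miR-181b.

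The lower groups showed small differences in 3 single arrays. In the 33 probes at least 4-fold lower in the combination, the median difference was -2.21 in the combination, -1.20 in miR-181b, -0.34 in miR-455, -0.27 in miR-32 and -0.19 in miR-181a. In the 900 probes 2-fold to 4-fold lower, it was -1.23 in the combination, -0.68 in miR-181b, -0.23 in miR-455, -0.18 in miR-32 and -0.11 in miR-181a. Over the 14907 probes less than 2-fold apart, the medians of these 5 arrays lay between -0.03 and 0.04. Over all 16555 compared probes they lay between -0.04 and 0.03.

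**Figure D4:**
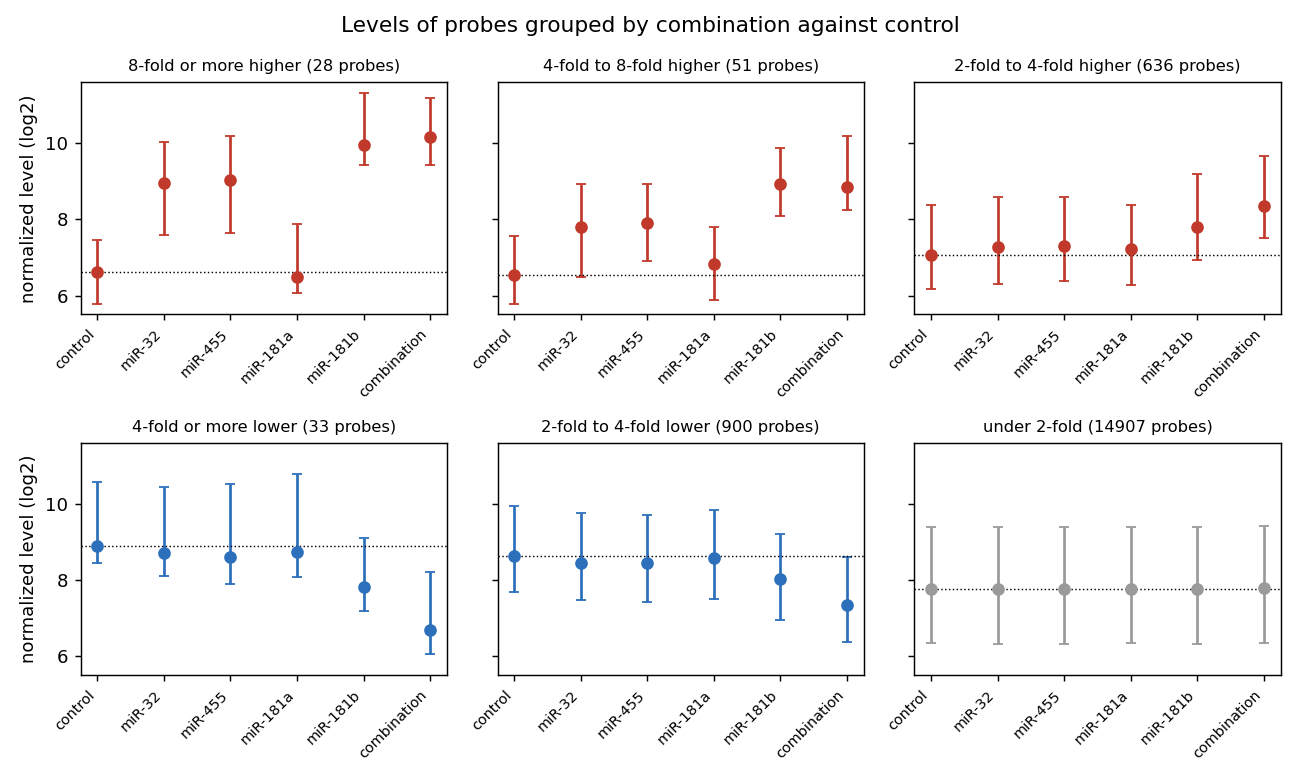
Normalized level (log2) of probes grouped by their difference between combination and control; points are medians over the probes of a group, bars run from the 25th to the 75th percentile of those probes (a spread over probes, not an error), and the dotted line is the control's median. The 28 probes of the highest group are also high in miR-32, miR-455 and miR-181b but not in miR-181a, and the lower groups are lowest in the combination with miR-181b next.

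Set directly against each single microRNA, with no use of the control, the combination was closest to miR-181b. Against miR-181b, 155 probes were 2-fold higher in the combination (0.964%) and 208 lower (1.29%), together 2.26% of 16087 compared. Against miR-32 there were 672 higher (3.98%) and 699 lower (4.13%), together 8.11% of 16905. Against miR-455 there were 637 higher (3.85%) and 652 lower (3.94%), together 7.78% of 16566. Against miR-181a there were 861 higher (5.25%) and 894 lower (5.45%), together 10.7% of 16403. The count against miR-181a, 1755, was thus above the 1648 against the control. Under scaling to the median of all probes, the count against miR-181a was 1975, below 2591 against miR-32 and 2069 against miR-455. The spread of the differences across probes (SD over probes) was 0.42 against miR-181b, 0.56 against miR-455, 0.57 against miR-32, 0.63 against the control and 0.64 against miR-181a. The count against miR-181b was the lowest of the 4 under every alternative that gave one. In mean raw signal, the combination and miR-181b were the dimmest of the 6 arrays, at 270 and 361, but in median raw signal they stood apart, at 70.0 and 103, and the part of array brightness in this likeness was not tested.

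**Figure D5:**
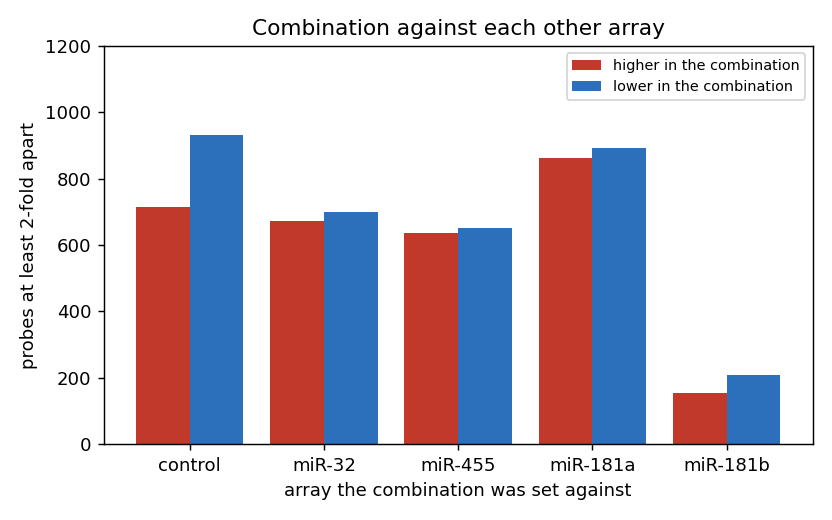
Number of probes at least 2-fold higher (red) or lower (blue) in the combination than on the control array and on each single microRNA array, 1 array each. The counts against miR-181b (155 and 208) are far below those against the other 4 arrays, which run from 637 to 933.

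Most probes called against the control were not far outside the range of the single arrays. Of the 715 higher probes, the combination stood above all 4 single arrays at 613 (85.7%), but by 2-fold or more at 75 (10.5%). Of the 933 lower probes it stood below all 4 at 892 (95.6%), and by 2-fold or more at 103 (11%). Over all compared probes the combination was above all 4 at 29.9% and below all 4 at 30.3%, and by 2-fold or more at 0.489% and 0.634%. Since called probes were selected for a high or low combination value, their larger shares follow in part from that choice. The control, in turn, was below all 4 single arrays at 310 of the 715 higher probes (43.4%) and above all 4 at 521 of the 933 lower ones (55.8%), against 17.6% and 19.1% of all compared probes. By 2-fold, the control was outside the single arrays in this way at 8 higher (1.12%) and 5 lower probes (0.536%). Over all compared probes it was 2-fold below all 4 at 8 (0.0483%) and 2-fold above all 4 at 6 (0.0362%). Called probes were selected for a low or high control value as well, so the control's larger shares also follow in part from the choice.

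The 75 probes at least 2-fold above the control and every single array had a median normalized level of 8.13 in the combination and between 6.44 and 6.72 on the other 5 arrays. In raw signal the medians were 248 and 161 to 185, although the combination array was the dimmest. The median gap to the nearest array was 1.19 on the log2 scale and the largest was 2.35. Of the 75, 44 were detected on all 6 arrays. On the other arrays these were dim probes, with median levels not far above the lowest detected ones (5.69 to 5.91).

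The 103 probes at least 2-fold below the control and every single array were brighter than the 75 higher ones on those arrays. In the combination they were dimmer, with a median normalized level of 7.44 against 8.13 and a median raw signal of 173 against 248. The sets were chosen on the direction of the gap, so this contrast follows in part from that choice. The median normalized level of the 103 was 7.44 in the combination and 8.66 in miR-181b. It was 8.91 in miR-455, 8.99 in miR-32, 9.10 in miR-181a and 9.11 in the control. The last 4 arrays lay close together, with no replicate error to set their order against. Median raw signals were 173 in the combination, 446 in miR-181b and 667 to 718 on the other 4. The median gap to the nearest array was 1.14 and the largest was 2.11. A 2-fold gap places these probes above the lowest detected level of every other array, so their detection there followed from the choice. On the combination array 99 of the 103 were detected. The lowest single array was miR-181b for 85 of these 103 probes. Among the 75 higher ones, miR-181b was the highest single array for 52. The same shares over all compared probes were not computed, so these counts are not shown to be particular to these sets. Over all 16555 compared probes, miR-181b had the most 2-fold differences from the control among the single arrays, 307 higher and 249 lower. The other single arrays had between 27 and 96 in each direction. Compared probes had to be detected on the combination or the control array, so probes detected only on single arrays are missing here. Whether this favoured the single array most like the combination was not tested.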

How the data were processed

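Per the file headers, the deposited raw table holds a signal intensity on a linear scale and, beside it, a detection p-value per probe, with no normalization recorded. A further deposited table holds intensity values processed by the authors, with some values below 0 and equal array means; the steps, array version and scanner software are not stated in the sources used here. Each group has 1 array, assigned from its label. Depth is not defined for arrays, whose number limits precision.

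Intensities of all 9 arrays were background corrected from the detection p-values, quantile normalized and log2 transformed with an offset of 16 (neqc, limma 3.58.1, R 4.3.3). The offset draws differences of dim probes toward 0. Undetected values (p of 0.01 or more) were raised to the lowest detected level of the array. A probe was called at a 2-fold difference, a rule of size in place of a test. Other steps used Python 3.11.15 with pandas 2.3.3, numpy 2.4.6 and matplotlib 3.10.9. Simulated data tested only the difference between combination and control and its 2-fold calls, with changed probes of bright signal.

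Named probes are the 2 highest and 2 lowest detected on both arrays. The comparison, the rules and a set of gene lists were chosen with earlier results of these data known; the lists were not analysed here, because the probes have no gene names. Groups by size and the comparisons with the single arrays were also chosen with results known. The alternatives concern background correction, offset, normalization, detection and threshold.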

Additional observations from a re-analysis of the deposited data

How the results depend on the processing

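No paired analysis was possible because there is 1 array per group, and leaving out a replicate was not possible for the same reason. The alternatives planned for the gene lists, including averaging a gene's probes, were not run for want of gene names, and normalizing the 2 compared arrays alone gives no value for the single arrays. Scaling to the median of the probes detected on all 9 arrays was chosen after seeing the data. Of 154 alternative values of counts, shares and medians, 104 stayed within 1.5 times the count, 10 percentage points of the share or 0.1 of the median and 50 moved farther. The median difference, 0.006 as reported, lay between -0.092 and 0.094. Of 48 alternative differences of the 4 named probes, 47 stayed within 1.5-fold and 1 moved. Part of this was fixed in advance: detection, floor and threshold settings cannot change the difference of a probe detected on both arrays. Nor can the threshold change the median difference, which is counted among the 154 values. The 1.5-fold and 4-fold thresholds change the counting rule itself, so counts under them had to differ. The split into 104 and 50 is therefore not a measure of robustness. Without a detection filter the main counts were the same, since undetected values stay at the floor.

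Without background correction, 301 probes were higher and 412 lower than in the control, with 40 and 9 at 4-fold and 10 and 0 at 8-fold. The counts were then 562 against miR-32, 529 against miR-455, 848 against miR-181a and 88 against miR-181b, with 24 probes set above and 24 below the control and all single arrays. An offset of 50 gave 457 higher and 616 lower, 13 lower at 4-fold, 18 higher at 8-fold, 877 against miR-32, 831 against miR-455, 166 against miR-181b, and 40 above and 52 below all other arrays. Both settings draw dim differences toward 0 by construction. Scaling to the median of all probes gave 475 higher (26.7% of calls), 53 lower at 4-fold, 2591 against miR-32, 2069 against miR-455 and 67 below all other arrays; the cause was not tested. The authors' processed values gave 63 lower at 4-fold, 2 lower at 8-fold and 578 against miR-181b, also not traced to a cause. Requiring detection on both arrays left 0 lower at 8-fold, and no floor gave 2 and 576 against miR-181b. At 1.5-fold the counts were 2354 higher and 2593 lower, 4540 against miR-32, 4430 against miR-455, 5004 against miR-181a, 2359 against miR-181b, and 489 above and 633 below all other arrays. At 4-fold they were 79 and 33 (70.5% higher), 56, 39, 130 and 8, and 3 and 1. Differences of undetected probes are bounds on the normalized scale alone.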
